A study of Mus musculus with 45 samples.

Results

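The genes described here are the glutathione S-transferases (Gst), UDP-glucuronosyltransferases (Ugt) and sulfotransferases (Sult) of the mouse, the enzymes of phase II conjugation. They were chosen by a rule on gene symbols from a table of 22080 genes, with earlier results of these data known. Of these, 45 matched: 18 Gst, 12 Ugt and 15 Sult genes. They were measured in liver, kidney and brain of male C57BL/6 mice, taken into the study at 7 weeks of age and sacrificed on day 43 of feeding. Control mice ate the AIN-93 diet, HCD mice the same diet with 0.5% cholesterol, and the 3 treated groups ate the HCD with 1.0% of an extract of the medicinal mushroom Ganoderma lucidum (Gl-1 or Gl-2) or with simvastatin at 0.03% by weight (HCD+Sim). The Gl-2 mushroom was grown on a substrate with acetylsalicylic acid and the Gl-1 mushroom without it. Each diet had 8 mice, and each tissue and diet has 3 arrays, called pools A, B and C. By the study's methods, pools A and B hold RNA of different mice and pool C is a mix of both, which leaves 2 separate pools behind each set of 3 arrays, and p-values measure the spread between such arrays, part of which is technical.

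Phase II enzymes attach a water-soluble group to foreign compounds, drugs, steroids, bile acids and bilirubin, mostly so that they can be excreted in bile or urine. Gst enzymes join glutathione to electrophiles in the cytosol, Ugt enzymes of the endoplasmic reticulum transfer glucuronic acid (or, for the Ugt3a enzymes, other sugars) from UDP-sugars, and Sult enzymes transfer sulfate from the donor PAPS. Liver and kidney are their main sites, and many of the genes are known targets of the xenobiotic receptors CAR (Nr1i3) and PXR (Nr1i2) and of the antioxidant regulator NRF2 (Nfe2l2), which binds antioxidant response elements.

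All values are log2 expression values, and a change is a difference of group means on that scale (log2 fold change) with the standard error (SE) of the limma fit. A gene passed the test at an adjusted p of at most 0.05 over the 22080 genes, and was DE if its absolute log2 fold change was also over 0.7. Array medians lay between 6.76 and 6.92, and arrays of a group correlated at 0.985 to 0.997 over all genes. Within groups, the conjugation genes had a median SD of 0.111 for liver, 0.0951 for kidney and 0.114 for brain arrays. A group of 3 against a group of 3 cannot give a two-sided exact permutation p under 0.1 for a single value. The summed level of 7 hepatocyte markers lay between 16.0 and 16.1 in all 15 liver arrays. Genes of other cells moved in some liver arrays. The summed level of 8 pancreas acinar genes was 10.72 and 11.33 in pools A and B of HCD+Sim but 9.34 in pool C and 9.11 to 9.36 in every other liver array, that of 6 skeletal muscle genes was 10.40 and 10.90 in the same pools A and B and 9.38 in pool C, and that of 6 squamous epithelium genes was 9.25 and 9.92 in pools A and B of Control and 8.37 in pool C. In both cases pool C lay outside the range of the pools it is said to mix, so the liver results below are also given without pool C. Leaving pool C out keeps pools A and B, which hold the high levels, so it is no check on the genes of other cells. The part of these cells in the results for Control and HCD+Sim was not tested. In whole tissue, fewer cells of a type and less RNA per cell cannot be told apart.

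Levels of these genes differed far more between tissues than between diets. In Control mice 28 of the 45 genes were DE between liver and kidney, against 16.8% of all genes, 33 were DE between liver and brain, against 32.7%, and 25 between kidney and brain, against 30%. No member moved by more than 0.71 in any of the 12 diet comparisons, whereas Ugt3a2 was at least 7.18 higher in kidney than in brain. A total of 13 members had a mean over the 45 arrays under 5.79, the 25th percentile of all genes. The files give no call of signal above background. A difference from a tissue whose mean lay under 5.79 is therefore given as a lower bound, with that tissue set to 5.79, beside the measured value. Among these, Sult1b1 and Ugt2b35 were DE in liver against both other tissues, and the other 11 were DE in no tissue comparison.

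**Figure D1:**
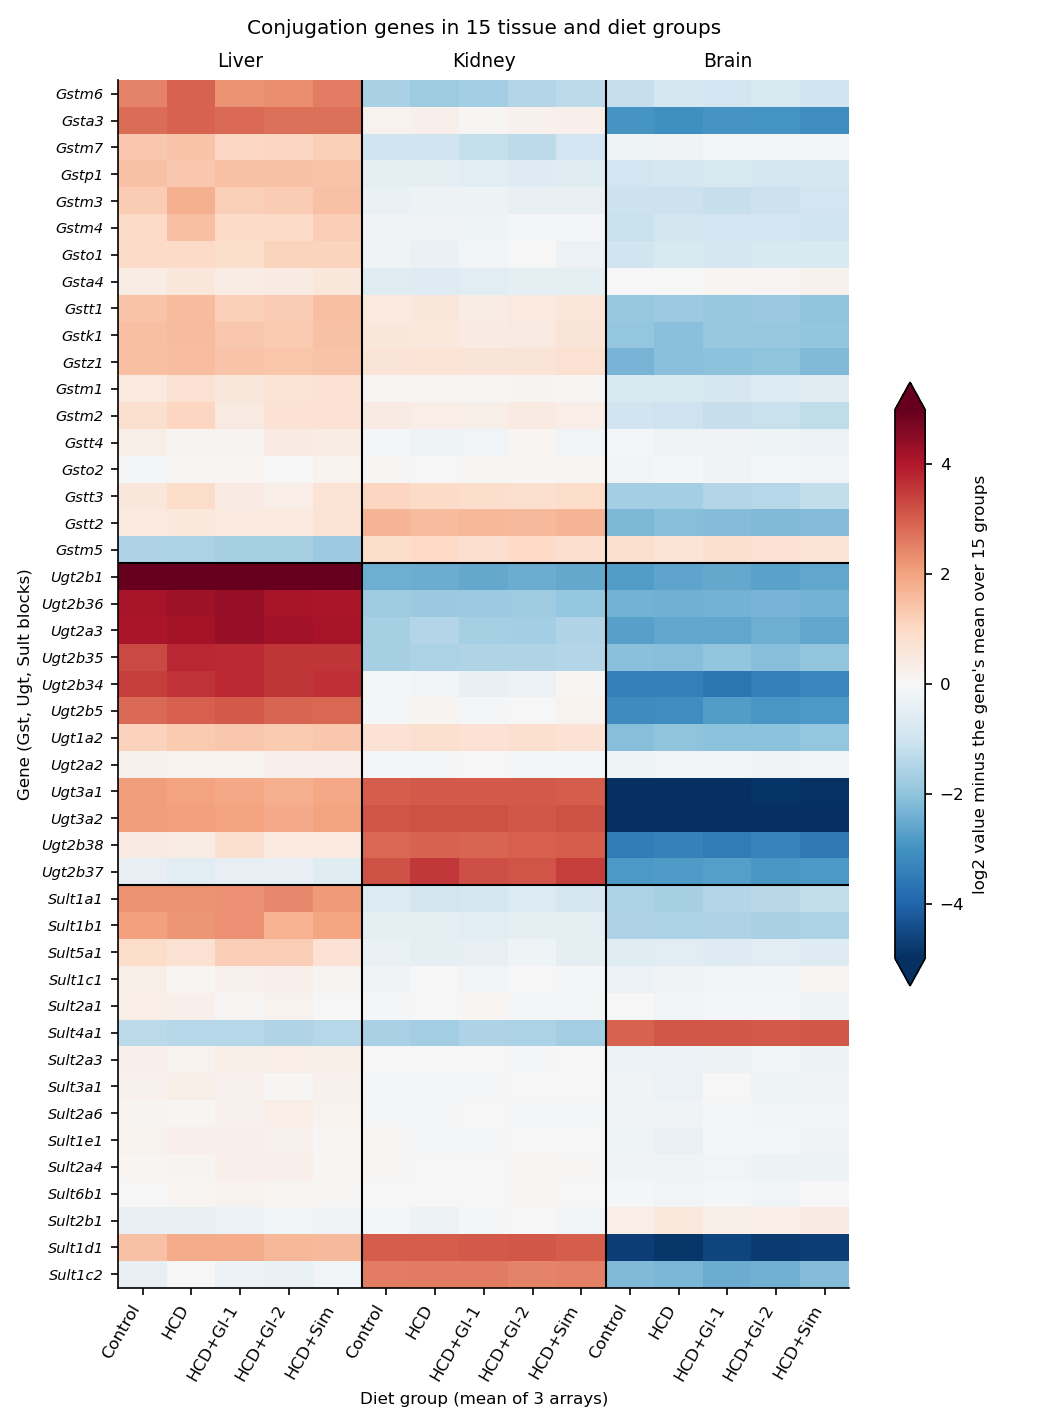
Mean log2 value of each of the 45 genes in the 15 groups (3 arrays each), minus the gene's own mean over the groups. Columns are diets within liver, kidney and brain, rows are genes within the Gst, Ugt and Sult blocks, and colours saturate at 5 log2 units either way. Most colour changes lie between tissues and not between the 5 diets of a tissue.

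The Ugt genes had the widest tissue differences. Against kidney, 6 of the 12 were DE higher in liver, against 6.78% of all genes, and 4 DE lower, against 10.1%. Against brain 11 of the 12 were DE higher in liver, against 15.5% of all genes, and none lower, against 17.2%. Ugt2b1, a steroid and drug glucuronidating enzyme, read 12.18, 12.09 and 12.25 in the liver of Control mice, 4.49, 4.42 and 4.74 in kidney, and 4.25, 4.33 and 4.05 in brain. Kidney and brain both lay under 5.79, so liver was at least 6.38 higher (at least 83.4-fold) than either, with measured differences of 7.63 (SE 0.10) from kidney and 7.96 (SE 0.10) from brain. Ugt2b36, Ugt2a3 and Ugt2b35 were at least 4.95, 5.16 and 3.09 higher in liver than in kidney (measured 5.91, 5.75 and 4.94), and Ugt2b34, above 5.79 in both, was 3.55 higher. Ugt3a1 and Ugt3a2, a pair of neighbours on chromosome 15, were high in both liver and kidney, with liver minus kidney at -0.95 and -1.08 (SE 0.10 for both) and liver above brain by at least 6.15 and 6.10 (measured 7.17 and 7.30). Ugt2a2 was dim in all 3 tissues, with group means of 3.31 to 3.70 in Control mice.

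The Ugt2 genes lie in a row on chromosome 5, and neighbours differed in the tissue they favoured. In the gene order of assembly GRCm38.p6, the measured members run Ugt2b34, Ugt2b1, Ugt2b35, Ugt2b36, Ugt2b5, Ugt2b37, Ugt2a3, Ugt2b38 and Ugt2a2, followed by Sult1b1, Sult1d1 and Sult1e1. Ugt2b5 read 10.78, 10.69 and 10.64 in Control liver and 7.82, 7.69 and 7.92 in Control kidney, and was higher in liver by 2.89 (SE 0.13). Ugt2b37, the next measured member, read 7.35, 6.88 and 7.23 in liver and 10.75, 10.52 and 10.96 in kidney, a difference of -3.59 (SE 0.15). Ugt2b38 read 9.33, 9.30 and 9.31 in liver and 11.68, 11.58 and 11.90 in kidney, a difference of -2.41 (SE 0.10). In the brain of Control mice all 3 genes stayed at or under 5.52. Liver and kidney did not overlap for any of the 3, as for 39 of the 45 members and 56.4% of all genes, and the order of the tissues was opposite for Ugt2b5 and the other two.

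These 3 genes have much the same sequence before their start sites, which is why their stretches are shown. Of 300 bases around the start site (RefSeq, GRCm38.p6), Ugt2b37 and Ugt2b38 share 91.0%, Ugt2b5 and Ugt2b38 87.0%, and Ugt2b5 and Ugt2b37 82.3%, while every other pair of the 9 Ugt2 windows shares between 39.0% and 63.3%. The 250 bases before each start site follow, 5′ to 3′ on the strand of the gene, with the longest run found in all 3, of 62 bases, in capitals.
Ugt2b5, chr5:87140341-87140590, minus strand: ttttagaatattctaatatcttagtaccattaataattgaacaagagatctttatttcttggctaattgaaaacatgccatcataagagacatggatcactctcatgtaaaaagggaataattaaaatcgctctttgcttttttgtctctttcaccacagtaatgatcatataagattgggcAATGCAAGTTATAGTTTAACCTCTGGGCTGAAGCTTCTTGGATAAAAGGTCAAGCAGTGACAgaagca
Ugt2b37, chr5:87254789-87255038, minus strand: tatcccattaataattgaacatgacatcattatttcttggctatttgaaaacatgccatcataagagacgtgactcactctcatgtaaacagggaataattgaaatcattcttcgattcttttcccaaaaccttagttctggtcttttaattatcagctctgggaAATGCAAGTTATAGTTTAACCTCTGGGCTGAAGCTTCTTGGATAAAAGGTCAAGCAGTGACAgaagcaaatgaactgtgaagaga
Ugt2b38, chr5:87424204-87424453, minus strand: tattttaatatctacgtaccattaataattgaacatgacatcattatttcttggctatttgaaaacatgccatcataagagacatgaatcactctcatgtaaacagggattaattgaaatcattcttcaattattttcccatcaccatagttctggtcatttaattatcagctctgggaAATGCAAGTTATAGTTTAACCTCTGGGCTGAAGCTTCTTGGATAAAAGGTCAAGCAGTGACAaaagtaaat
The run ends 6 bases before the start site of Ugt2b5, 23 before that of Ugt2b37 and 9 before that of Ugt2b38. A gene with near copies can share probe signal with them, and the values of these Ugt2b genes are uncertain to that extent.

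The Gst genes were mostly higher in liver. Against kidney, 11 of the 18 were DE higher in liver, against 6.78% of all genes, and 2 lower, against 10.1%. Against brain 14 were DE higher in liver, against 15.5%, and 1 lower, against 17.2%. Gsta3, an alpha-class enzyme, read 12.11, 12.12 and 12.13 in Control liver, 9.66, 9.32 and 9.53 in kidney and 6.33, 6.44 and 6.36 in brain, a difference of 5.74 (SE 0.08) between liver and brain. Gstm6 read 9.44, 9.70 and 8.98 in liver and 4.99, 5.39 and 5.35 in kidney, so that liver was at least 3.58 higher (measured 4.13, SE 0.18). Gstm5 stood alone among the 7 Gstm genes in being lower in liver than in both other tissues. It read 7.10, 6.85 and 7.08 in liver, 9.54, 9.29 and 9.38 in kidney and 9.43, 9.0 and 9.54 in brain. The liver lay -2.39 (SE 0.14) from kidney and -2.31 (SE 0.14) from brain, and kidney and brain did not differ beyond their spread (0.08, adjusted p = 0.658). Gstt2 was higher in kidney than in liver (-1.20, SE 0.12) and Gstm7 lower in kidney than in brain (-0.79, SE 0.10).

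The antioxidant response element core, TGACNNNGC on either strand, was looked for in the 300 bases around each start site. It was found in 3 of the 40 members with a window (Gsta3, Gstm5 and 1 window of Gstm7) and in 3 of their 50 windows, against 12.4% of all 32851 windows of the table. It was not among the letters of the windows of Gstm1, Gstm2, Gstm3, Gstm4, Gstm6, Gstt1 or Gstt3, which says only that these letters are not within those 300 bases. The 250 bases before the start sites of the 2 genes that hold it in the window farthest upstream are shown with the match in capitals, since these 2 genes show the widest liver excess over brain of the Gst genes and the reverse.
Gsta3, chr1:21240335-21240584, plus strand: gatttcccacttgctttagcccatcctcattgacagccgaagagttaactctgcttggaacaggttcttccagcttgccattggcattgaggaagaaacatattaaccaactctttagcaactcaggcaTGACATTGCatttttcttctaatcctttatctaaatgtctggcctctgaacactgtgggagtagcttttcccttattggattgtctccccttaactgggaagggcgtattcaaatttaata
Gstm5, chr3:107895604-107895853, plus strand: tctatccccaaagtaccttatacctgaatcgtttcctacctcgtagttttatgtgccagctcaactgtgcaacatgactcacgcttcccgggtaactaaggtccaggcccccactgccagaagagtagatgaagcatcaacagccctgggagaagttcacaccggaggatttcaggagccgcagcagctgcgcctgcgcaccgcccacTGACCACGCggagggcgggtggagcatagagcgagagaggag
The windows of the Gstm and Gstt genes shared 37.0% to 49.0% of their bases in pairs, so the Gstm neighbours are not alike before their start sites in the way Ugt2b5, Ugt2b37 and Ugt2b38 are.

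The Sult genes included the clearest brain gene of the set. Sult4a1, a sulfotransferase of neurons with no well-known substrate, read 10.43, 10.47 and 10.44 in Control brain, 6.25, 6.03 and 6.16 in liver and 5.89, 5.71 and 5.95 in kidney. Liver minus brain was -4.30 (SE 0.10) and kidney minus brain -4.60 (SE 0.10). Sult2b1, which sulfates cholesterol and other sterols, was also lower in liver than in brain (-0.72, SE 0.11). Sult1c2 read 10.09, 9.99 and 10.08 in kidney against 7.18, 7.04 and 6.96 in liver, and Sult1d1 11.85, 11.84 and 12.03 against 10.36, 10.42 and 10.29. Liver therefore lay -2.99 (SE 0.11) from kidney for Sult1c2 and -1.55 (SE 0.12) for Sult1d1. Sult1a1, a phenol sulfotransferase, was higher in liver than in kidney by 2.95 (SE 0.14). Of the 15 Sult genes, 8 had a mean under the 25th percentile of all genes and were not DE between any tissues: Sult1c1, Sult1e1, Sult2a1, Sult2a3, Sult2a4, Sult2a6, Sult3a1 and Sult6b1.

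**Figure D2:**
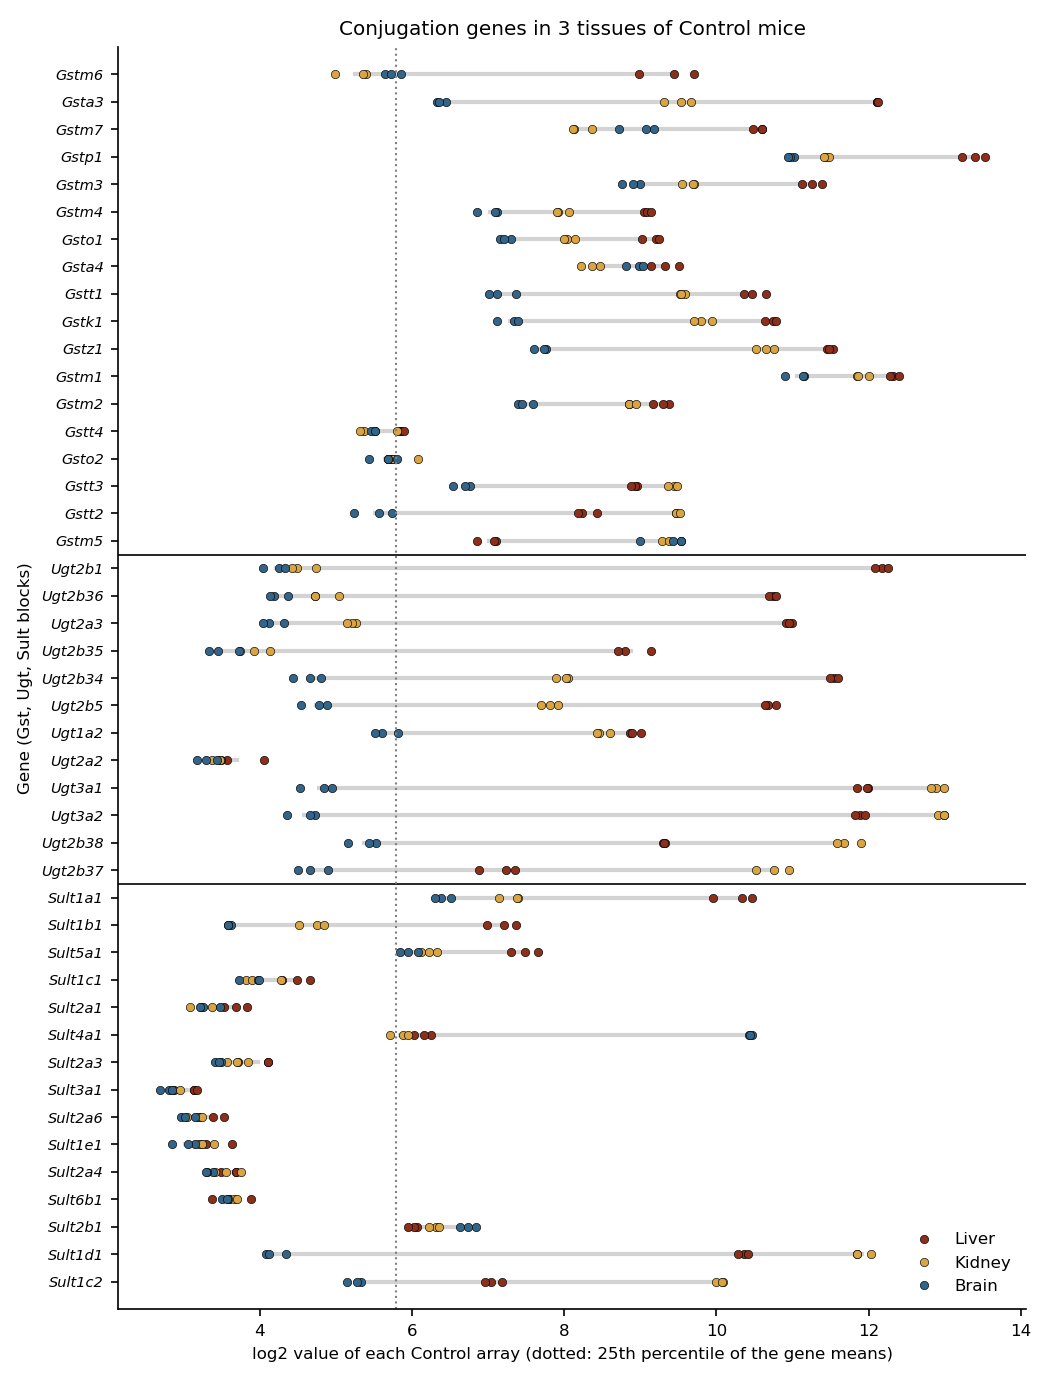
Log2 value of each of the 45 genes on the 9 Control arrays, 3 each of liver, kidney and brain; grey bars join the lowest and highest tissue mean and the dotted line is the 25th percentile of all gene means. Rows run within the Gst, Ugt and Sult blocks from the largest liver excess over kidney to the largest kidney excess; levels of different genes come from different probes and are not comparable.

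The HCD was compared with Control to ask what the cholesterol load changed. No conjugation gene was DE in liver, where 0.245% of all genes were, and 2 passed the test without the fold threshold, against 1.34% of all genes. Both were mu-class Gst genes and rose, as did 0.575% of all genes. Gstm3 read 11.26, 11.13 and 11.38 in Control and 11.85, 11.56 and 11.82 in HCD, a change of 0.49 (SE 0.08, adjusted p = 2.64e-04). Gstm4 read 9.05, 9.08 and 9.14 in Control and 9.71, 9.46 and 9.68 in HCD, a change of 0.52 (SE 0.11, adjusted p = 0.00481). The groups did not overlap for either gene, as for 15 of the 45 members and 14.9% of all genes. The changes of the other 16 Gst genes did not pass. Of all 18, 15 were above 0, against 45.8% of all genes, with a median of 0.14, and the median of the 7 Gstm genes was 0.28, beside -0.01 for all genes. Of the genes that did not pass, Ugt2b35 had the largest change, 0.50 (SE 0.14, adjusted p = 0.0560), followed by Gstm6 at 0.47 (SE 0.18, adjusted p = 0.25). The medians of the Ugt and Sult genes were 0.04 and -0.01. Without pool C, Gstm3 (0.51) and Gstm4 (0.52) still passed, and so did Sult1c2. Fitted on liver arrays only, neither Gstm3 nor Gstm4 passed. In the same comparison 4 of the 6 squamous genes fell, and the summed muscle level was 9.77 to 10.03 in Control and 9.31 to 9.55 in HCD. That of 4 macrophage genes was 10.6 to 10.9 in Control and 10.5 to 10.6 in HCD, with no overlap, though none of the 4 passed. The part of any of these in the Gst values was not tested.

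Each extract was compared with HCD to ask what it changed on that diet. Under Gl-1, 9 of the 45 genes passed the test in liver, against 2.48% of all genes, and 1 of them, Gstm6, was DE, against 0.163%. The 7 that fell (0.996% of all genes did) were all Gst genes, 5 of the mu class and 2 of the theta class. Gstm6 read 9.84, 10.04 and 9.66 in HCD and 9.29, 9.32 and 8.82 under Gl-1, a change of -0.71 (SE 0.18, adjusted p = 0.0242). Gstm3 fell from 11.85, 11.56 and 11.82 to 11.21, 11.22 and 11.05, a change of -0.58 (SE 0.08, adjusted p = 2.71e-05). The arrays of both groups stood apart for both genes, as for 14 of the 45 members and 14.7% of all genes. Gstm2 read 9.67, 9.56 and 9.46 in HCD and 8.96, 9.25 and 8.67 under Gl-1, a change of -0.60 (SE 0.13, adjusted p = 0.00594). Gstm4 read 9.12, 9.28 and 8.91 under Gl-1, a change of -0.52 (SE 0.11, adjusted p = 0.00574). Gstm7, named after its values were seen to complete the count, changed by -0.38 (SE 0.10, adjusted p = 0.0409). Without Gl-1 pool C, Gstm6 (-0.55), Gstm2 (-0.46) and Gstm4 (-0.42) did not pass.

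The theta-class genes Gstt1 and Gstt3, whose enzymes act on small halogenated compounds, fell with them. Gstt3 read 9.30, 9.11 and 9.45 in HCD and 8.79, 8.72 and 8.84 under Gl-1, a change of -0.51 (SE 0.10, adjusted p = 0.00402). Gstt1 read 10.64, 10.68 and 10.63 in HCD and 10.27, 10.33 and 10.18 under Gl-1, a change of -0.39 (SE 0.09, adjusted p = 0.00988). In neither gene did the groups overlap. Of all 18 Gst genes, 2 had a change above 0 under Gl-1, against 46.3% of all genes, and the medians were -0.19 for the Gst genes, -0.52 for the 7 Gstm genes and -0.01 for all genes.

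A Ugt and a Sult gene rose under Gl-1, as did 1.48% of all genes. Ugt2b38 read 9.27, 9.30 and 9.12 in HCD and 9.72, 9.68 and 9.57 under Gl-1, a rise of 0.43 (SE 0.10, adjusted p = 0.0144). Sult5a1 read 7.43, 7.30 and 7.28 in HCD and 7.64, 7.91 and 7.79 under Gl-1, a rise of 0.44 (SE 0.11, adjusted p = 0.0271). All 3 treated arrays lay above all 3 HCD arrays in both cases. Ugt2b37 and Ugt2b5, the genes most like Ugt2b38 before the start site, did not pass in any diet comparison. Without pool C, 4 of the 9 genes passed (Gstm3, Gstm7, Gstt3 and Ugt2b38), and Gstm6 changed by -0.64 and did not. Fitted on liver arrays only, Gstm3 alone passed. Of the 4 macrophage genes Cd163 rose under Gl-1 by 0.43 (adjusted p = 0.00988), and their summed level was 10.4 to 10.8, around that of HCD; their part was not tested.

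**Figure D3:**
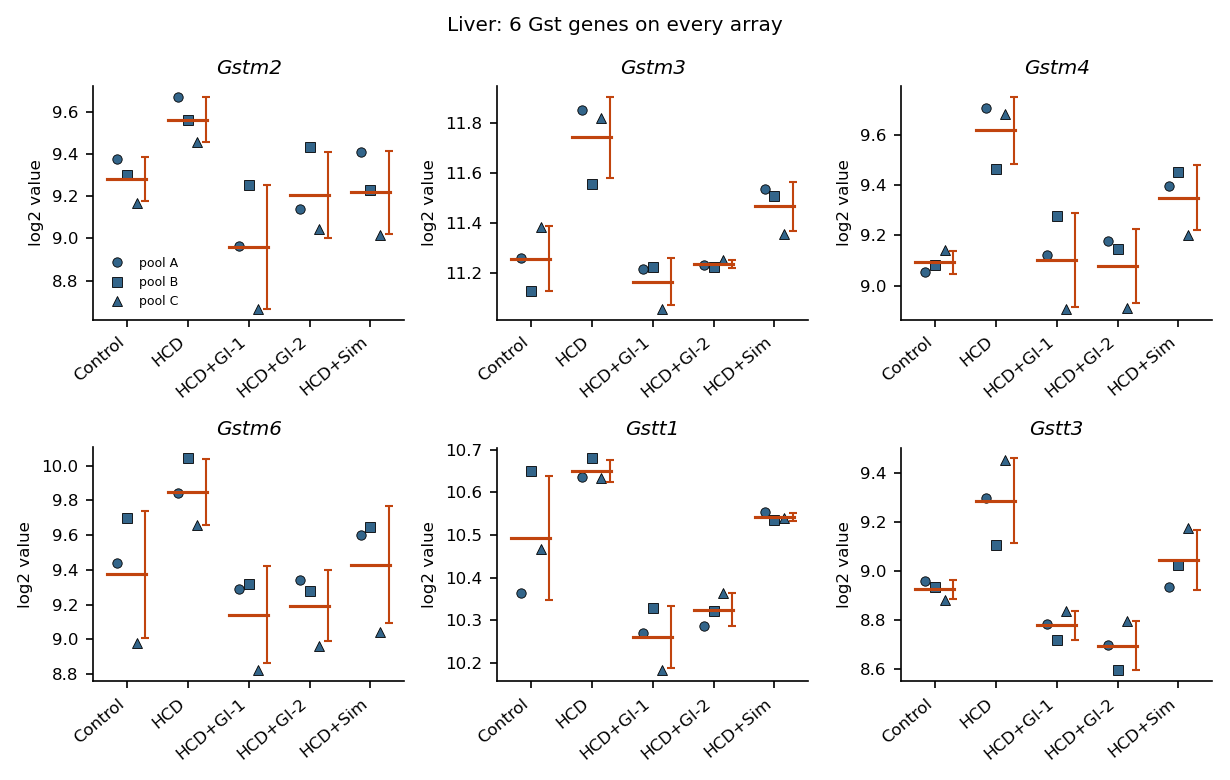
Log2 value of Gstm2, Gstm3, Gstm4, Gstm6, Gstt1 and Gstt3 on each of the 15 liver arrays, with the mean (line) and SD (bar) of each diet group of 3; marker shapes give pools A, B and C, and each panel has its own axis. The HCD arrays are the highest group in all 6 panels, and the arrays of both extract groups lie below all HCD arrays.

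Under Gl-2, 6 of the 45 genes passed the test in liver, against 1.7% of all genes, and none was DE, against 0.303%. Of the 6, 5 fell, against 0.874% of all genes, and 1 rose, against 0.824%. Gstm3 read 11.23, 11.22 and 11.25, a change of -0.51 (SE 0.08, adjusted p = 1.61e-04) from HCD. Gstt3 read 8.70, 8.6 and 8.80, a change of -0.59 (SE 0.10, adjusted p = 5.63e-04). Gstm4 read 9.18, 9.15 and 8.91, a change of -0.54 (SE 0.11, adjusted p = 0.00307). All 3 Gl-2 arrays lay below the 3 HCD arrays in each of these genes, and the groups did not overlap for 19 of the 45 members, against 15.2% of all genes. Gstm6 changed by -0.66 (SE 0.18, adjusted p = 0.0446) and Gstt1 by -0.33 (SE 0.09, adjusted p = 0.0416). Sult5a1 rose again, with 7.45, 7.99 and 7.99 under Gl-2 and a change of 0.47 (SE 0.11, adjusted p = 0.0174). Of the 18 Gst genes 3 had a change above 0, against 52% of all genes, and the Gstm median was -0.37. Without pool C, Gstm3 and Gstt3 passed, and fitted on liver arrays only, Gstt3 passed.

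The comparisons of HCD with Control, and of Gl-1, Gl-2 and simvastatin with HCD, share the 3 liver HCD arrays, so a high value on those arrays enters all of them with opposite signs in the first and the rest. Set against Control instead, a comparison added after the values were seen, 1 of the 45 genes passed under Gl-1 (Ugt2b38, 0.34, SE 0.10, adjusted p = 0.0488), against 3.58% of all genes. None passed under Gl-2, against 2.86%, or under simvastatin, against 1.54%, by limma. An unadjusted p under 0.05 was found for 12 of the 45 under Gl-1, against 17.9% of all genes, for 11 under Gl-2, against 14.2%, and for 8 under simvastatin, against 11.8%. Gstm3 lay -0.09 (SE 0.08) from Control under Gl-1 and -0.02 (SE 0.08) under Gl-2, and Gstm4 lay 0.01 and -0.02 from it (SE 0.11 for both). Gstt3 lay -0.15 and -0.23 from it (SE 0.10 for both). The other Gst genes that fell under Gl-1 lay further below Control there. Gstm2 lay at -0.32 (SE 0.13), Gstm7 at -0.30 (SE 0.10), Gstt1 at -0.23 (SE 0.09) and Gstm6 at -0.23 (SE 0.18). Under Gl-2 they lay at -0.08, -0.29, -0.17 and -0.18, with the same SEs. None of these passed.

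Simvastatin, which inhibits the rate-limiting enzyme of cholesterol synthesis, was compared with HCD in the same way. No conjugation gene was DE in liver, against 0.258% of all genes, or passed by limma, against 1.1% of all genes, and 11 had an unadjusted p under 0.05, against 11.7% of all genes. Gstm3 read 11.54, 11.51 and 11.35 under simvastatin, a difference of -0.28 (SE 0.08, adjusted p = 0.0854), and Gstm6 read 9.60, 9.64 and 9.04, a difference of -0.42 (SE 0.18, adjusted p = 0.317). The simvastatin arrays lay below the HCD arrays in both, and the groups did not overlap for 12 of the 45 members, against 13.4% of all genes. The Gstm median was -0.27. None passed without pool C either. Pools A and B of HCD+Sim are those with the high acinar and muscle levels given above.

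**Figure D4:**
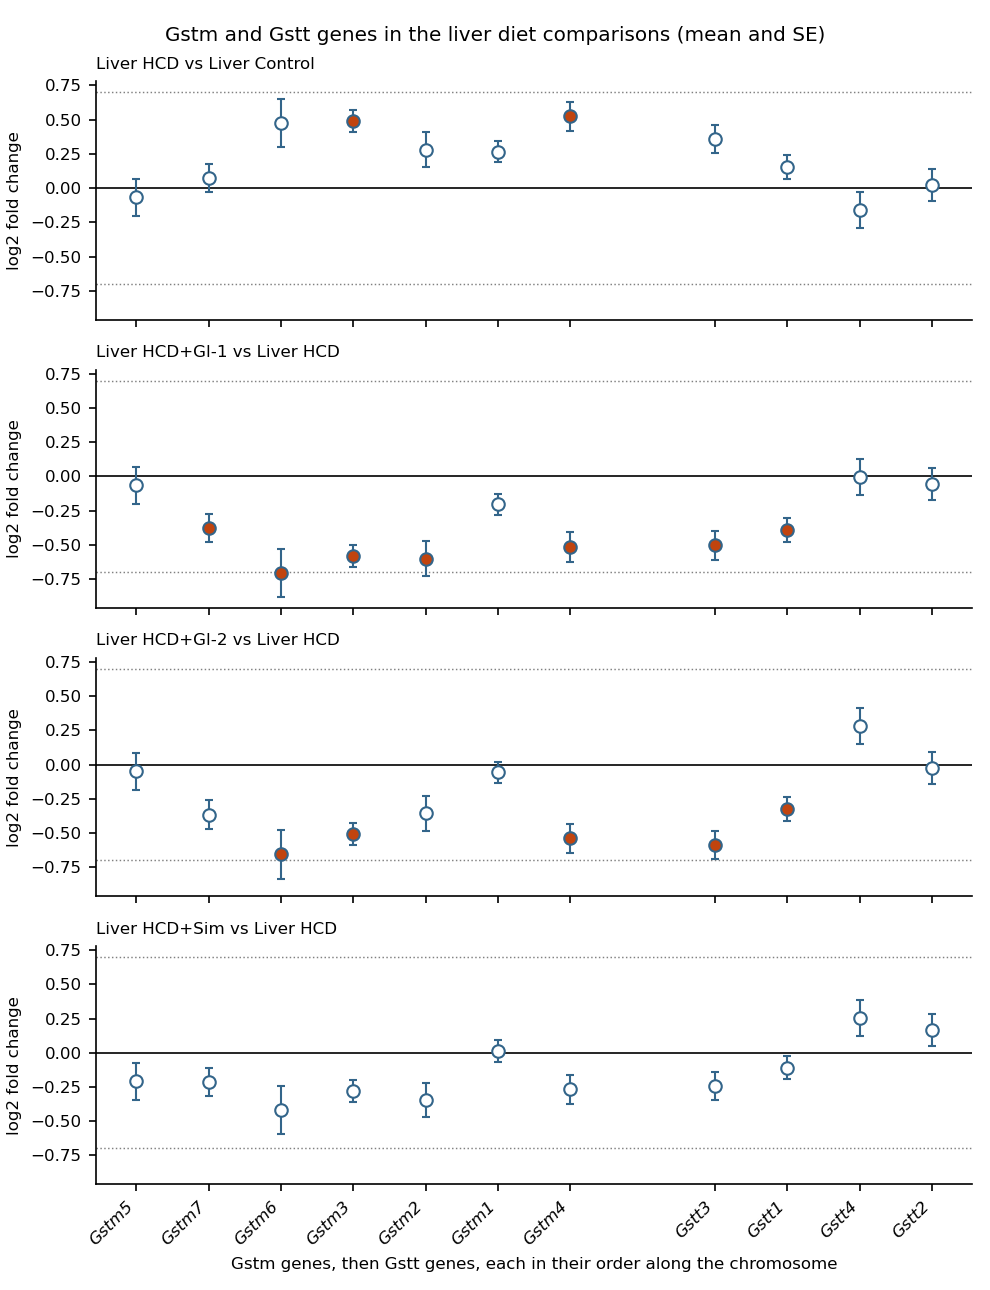
Log2 fold change with its SE (limma) of the 7 Gstm and 4 Gstt genes in the 4 liver diet comparisons, in the order of the genes along chromosomes 3 and 10. Filled points passed at an adjusted p of at most 0.05, and dotted lines mark 0.7 either way. Gstm5, at one end of its row, Gstm1, between Gstm2 and Gstm4, and Gstt2 and Gstt4, at one end of theirs, did not pass in any panel. Gstm4, at the other end of the Gstm row, passed under HCD, Gl-1 and Gl-2.

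The Gstm genes lie in the order Gstm5, Gstm7, Gstm6, Gstm3, Gstm2, Gstm1 and Gstm4 on chromosome 3, and the Gstt genes in the order Gstt3, Gstt1, Gstt4 and Gstt2 on chromosome 10. Gstm5, at one end, changed by -0.07 under Gl-1 and -0.05 under Gl-2 (SE 0.14), and Gstm1 by -0.21 and -0.06 (SE 0.08), none of which passed. Gstt2 changed by -0.06 and -0.03 (SE 0.12). Over the 15 liver arrays Gstm3 and Gstm4 correlated at 0.927, and at 0.685 once each diet's mean was removed. Gstm3 and Gstt3 correlated at 0.811 and 0.095. These are descriptions over arrays that share groups and pools, and near-identical Gstm genes may share probe signal.

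Gl-2 was also compared with Gl-1 directly. In liver 2 conjugation genes passed, against 3.94% of all genes, and none was DE, against 0.172%. Sult1b1, which sulfates phenols and thyroid hormone, read 7.51, 7.13 and 7.68 under Gl-1 and 7.28, 6.75 and 6.61 under Gl-2, a change of -0.56 (SE 0.15, adjusted p = 0.0250), and the groups overlapped. Gsto1, an omega-class enzyme that also reduces dehydroascorbate, read 9.12, 9.08 and 9.03 under Gl-1 and 9.36, 9.18 and 9.46 under Gl-2, a change of 0.25 (SE 0.07, adjusted p = 0.0402). Neither passed without pool C or when fitted on liver arrays only. The Gstm and Gstt genes that fell under each extract did not pass here, where for example Gstm3 differed by 0.07 and Gstt3 by -0.08.

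Kidney and brain gave almost no calls. In kidney, Gsto1 was the only conjugation gene that passed, and only under Gl-2, against 0.996% of all genes. It read 7.78, 7.93 and 7.98 in HCD and 8.22, 8.30 and 8.2 under Gl-2, a rise of 0.34 (SE 0.07, adjusted p = 0.00673). The groups did not overlap, as for 9 of the 45 members and 20.4% of all genes. It also passed without pool C (0.40) and in a fit on the kidney arrays alone. Under Gl-1 Gsto1 read 8.06, 8.15 and 8.03, a difference of 0.18 (SE 0.07, adjusted p = 0.962). The summed level of 4 duct epithelium genes (Krt7, Krt19, Epcam and Sox9) was 9.61 to 9.76 in kidney HCD, 9.82 on all 3 arrays of Gl-1 and 9.96 to 10.0 under Gl-2, where Krt7 and the collecting duct gene Aqp2 rose. Their part in the Gsto1 values was not tested. No conjugation gene passed by limma in kidney under HCD, Gl-1 or simvastatin, against 0.131%, 0.267% and 0.222% of all genes. There 2, 7 and 2 of the 45 had an unadjusted p under 0.05, against 4.47%, 4% and 6.19% of all genes. None passed in brain under HCD, Gl-1, Gl-2 or simvastatin, against 0.0543%, 0.0181%, 0.0362% and 0.0181%. Of the 45 genes 2, 8, 5 and 5 had an unadjusted p under 0.05 there, against 6.44%, 5.55%, 6.65% and 5.53% of all genes. Between the extracts none passed by limma in kidney or brain, against 0.394% and 0.0136% of all genes, while 1 (Gsto1) and 3 (Sult3a1, Ugt2b34 and Ugt3a2) had an unadjusted p under 0.05, against 6.66% and 5.49%. Without pool C, Gstz1 passed in brain under HCD.

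Whether the liver response differed from that of another tissue was tested as a difference of differences in the same fit. Gstt3 was the only conjugation gene that was DE in such a difference, against brain. In brain it read 6.70, 6.66 and 6.61 in HCD, 7.02, 6.96 and 6.76 under Gl-1, 7.23, 7.01 and 6.64 under Gl-2, and 7.11, 7.07 and 7.20 under simvastatin. The brain changes of 0.26, 0.30 and 0.47 (SE 0.10 for each) did not pass on their own. In liver Gstt3 read 9.30, 9.11 and 9.45 in HCD and 8.93, 9.02 and 9.18 under simvastatin. That liver change did not pass on its own either. The liver change minus the brain change was -0.76 under Gl-1 (SE 0.15, adjusted p = 0.00952), against 0.140% of all genes DE, -0.89 under Gl-2 (SE 0.15, adjusted p = 0.00143), against 0.276%, and -0.71 under simvastatin (SE 0.15, adjusted p = 0.0353), against 0.0634%. These share the HCD arrays of both tissues. The summed level of 7 brain genes was 15.04, 15.06 and 14.83 in pools A, B and C of brain Gl-2. Under Gl-1 it was 15.08, 15.06 and 14.88, and in brain HCD 15.05 to 15.07. Pool C of both extracts thus lay outside the range of pools A and B. The part of this in the Gstt3 values was not tested. The kidney changes of Gstt3 were -0.09, -0.16 and -0.05 (SE 0.10), between those of liver and brain.

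Gstm3 differed between tissues without reaching the fold threshold. The liver change minus the kidney change under Gl-1 was -0.60 (SE 0.11, adjusted p = 0.00397), and minus the brain change -0.50 (adjusted p = 0.0305). Against brain, the HCD and Gl-2 responses of Gstm3 also passed (adjusted p = 0.0461 and 0.0181). Gstm4 passed against kidney under Gl-2 (adjusted p = 0.0476), and Gstk1, the kappa-class enzyme of mitochondria and peroxisomes, against brain under Gl-2 (adjusted p = 0.0348). Of all genes, 0.326% passed against brain for the HCD response, 0.362% for Gl-1 and 0.598% for Gl-2, and 0.389% passed against kidney for Gl-1 and 0.625% for Gl-2.

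**Figure D5:**
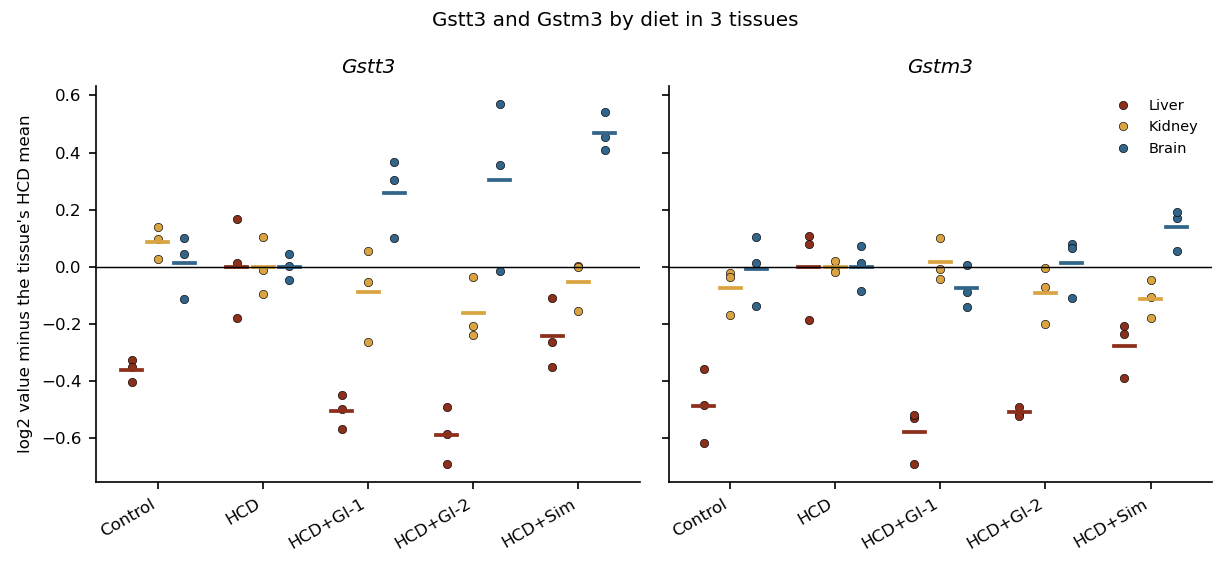
Log2 values of Gstt3 and Gstm3 on each array of the 5 diets, minus the mean of the tissue's HCD arrays, for liver, kidney and brain; short lines are group means of 3 arrays. The liver means lie below 0 in every diet other than HCD in both panels, while the Gstt3 brain means under the 3 treatments lie above 0.

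The genes around conjugation were described from lists of the donors, receptors and other targets. Of 8 other known targets of PXR and CAR, all 8 were above Control in liver under HCD, with a median of 0.45, and 5 passed (Cyp2b10, Cyp3a11, Cyp2c55, Abcc3 and Alas1), against 1.34% of all genes. Abcc3, an exporter of conjugates, rose by 1.07 (adjusted p = 4.73e-12) and Cyp2b10, the classic CAR target, by 0.86 (adjusted p = 7.04e-04). Under Gl-1 Cyp2b10 changed by -0.69 and Abcc3 by -0.36, which passed, and Alas1 rose by 0.42. Under Gl-2 Por and Alas1 rose by 0.54 and 0.51. None of the 8 passed under simvastatin, against 1.1% of all genes.

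For the counts that follow, 1.34%, 2.48%, 1.7% and 1.1% of all genes passed in liver under HCD, Gl-1, Gl-2 and simvastatin. Of 9 receptor and regulator genes, Nr1i3 (CAR) rose by 0.43 under Gl-2 (adjusted p = 0.0431), and none passed in liver under HCD, Gl-1 or simvastatin. Of 7 other NRF2 targets, 1 passed, Ephx1 under HCD (0.36, adjusted p = 0.0463). The enzymes that make UDP-glucuronic acid, Ugdh and Ugp2, rose under HCD by 0.37 and 0.35 (2 of 5 on the list), and Ugp2 fell by 0.38 under Gl-2. Of 9 genes of glutathione supply or breakdown, Chac1, on the breakdown side, rose by 0.38 and G6pdx fell by 0.90 under HCD. Gclc, the rate-limiting enzyme of glutathione synthesis, fell by 0.32 under Gl-2 (adjusted p = 0.0164). None of the 7 measured genes of PAPS supply passed. Of 14 other conjugation enzymes, Inmt rose under HCD by 0.57, and Mgst3 fell by 0.48 under Gl-1.

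Some Gst, Ugt and Sult genes are known to differ between male and female liver. Therefore 7 measured female-biased and 9 male-biased liver genes were set beside them. The summed level of the female-biased genes was 8.52 to 8.71 in Control liver and 9.38 to 10.12 in HCD. It was 9.03 to 9.39 under Gl-1, 8.79 to 9.03 under Gl-2 and 9.22 to 9.66 under simvastatin. That of the male-biased genes was 14.97 to 15.05 in Control, 14.90 to 14.93 in HCD and 15.01 to 15.17 under Gl-1. Under Gl-2 it was 14.83 to 14.915, and under simvastatin 14.94 to 14.98. Among the female-biased genes, Cyp2b9 rose by 3.20 under HCD (adjusted p = 4.72e-13), fell by 2.08 under Gl-1 and fell by 3.17 under Gl-2, and Cyp3a44 rose by 1.21 under HCD. The part of these regulators and of sex-biased expression in the Gst values was not tested.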

How the data were processed

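RNA pools of 15 groups (3 tissues, 5 diets) were hybridised to Affymetrix mouse gene ST arrays, 45 in all. The authors deposited log2 values, made by RMA background correction and quantile normalization, then ComBat for batches not named in the sources used here, with 1 probe set kept per gene. The table had 22080 genes, 13 with names turned into dates. Values were used as deposited. A model with a mean per group was fitted over all arrays in limma 3.58.1 (R 4.3.3, prior df 7.34), with Benjamini-Hochberg adjustment over all genes. The code was run on simulated data in which all arrays were independent. Pool C shares RNA with pools A and B, so that run does not check the p-values of the real arrays. Near-identical genes can share probe signal. Members and lists were chosen with earlier results of these data known. Genes named by rule were those DE in a diet comparison and up to 5 a direction by adjusted p among the other genes that passed. To these were added up to 8 a direction by size between tissues, and those called in a difference between tissues. Other members, such as Gsta3, Gstm1, Gstk1, Gstz1, Ugt2a2 and Sult3a1, were named outside this rule, with their values known. Alternatives were other sets of arrays, pools A and B alone, a filter on dim genes, the pool letter as a block, other scalings, moderated variances with trend, and Control as reference. Same-lettered pools correlated over 0.1 in every pair only for liver Gl-2 against Gl-1 (r = 0.142, 0.265 and 0.189), where the block kept both calls; in the other comparisons the letters were not taken to pair the arrays. Promoter windows came from RefSeq (GRCm38.p6), read with Python 3.11.15, for 40 of the 45 genes.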

Additional observations from a re-analysis of the deposited data

Results flagged for a closer look

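The response of Gstt3 in liver minus its response in brain was tested and passed under all 3 treatments, at -0.76 for Gl-1, -0.89 for Gl-2 and -0.71 for simvastatin on the log2 scale. All 3 values rest on the same 3 liver HCD and 3 brain HCD arrays, and the brain changes alone did not pass (adjusted p = 0.806, 0.523 and 0.133, limma). Under simvastatin the liver change alone did not pass either.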

How the results depend on the processing

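The count of 1 DE gene under Gl-1 in liver was 0 when fitted on liver arrays only, on the compared groups alone, on pools A and B alone and with each array's median subtracted, and 0 to 2 with 1 array left out (0 without HCD pool A, HCD pool B or Gl-1 pool C, 2 without Gl-1 pool B). It was 0 to 1 under Gl-2 (1 without HCD pool C) and 0 to 1 for Gl-2 against Gl-1 (1 without Gl-2 pool A or Gl-1 pool B). Without the fold threshold 2 genes passed under HCD, 9 under Gl-1, 6 under Gl-2, 1 in kidney under Gl-2 and 2 for liver Gl-2 against Gl-1. Of the 19 diet values of named genes, 3 passed on the arrays of the tissue alone, 0 on the compared groups alone and 8 on pools A and B. With the replicate block 18 passed (all but Gstt1 under Gl-2, adjusted p = 0.0515). None changed sign in these fits. The block took the count of members under HCD from 2 to 5. For these fits the share over all genes was not computed, so their counts are not set against it. With Control as reference, an alternative chosen after seeing the data, Gstm4 under Gl-1 turned to 0.0089. With 1 array left out, Gstm3 kept its 3 calls, Gstt3 both, and Gstm4 that under HCD, while Gstt1 under Gl-2 lost its call with any of 6 arrays left out, Gstm6 lost it in 3 of 6 under Gl-1 and 5 of 6 under Gl-2, Sult5a1 in 4 of 6 under each extract, and Gstm4 under Gl-2 without Gl-2 pool C (-0.46). Gstm2 (-0.46), Gstm4 (-0.42) and Gstt1 (-0.35) under Gl-1 lost theirs without Gl-1 pool C, Ugt2b38 without HCD pool C (0.38) or Gl-1 pool A (0.40), Sult1b1 and Gsto1 between the extracts in 4 of 6 each, and kidney Gsto1 without Gl-2 pool B (0.31) or HCD pool A (0.29). The Gstt3 liver minus brain difference ranged from -0.85 to -0.68 under Gl-1, falling under the fold threshold without liver HCD pool C, from -1.05 to -0.76 under Gl-2, and from -0.80 to -0.63 under simvastatin, where it lost the call in 10 of 12 and, at -0.63, on pools A and B. The cause of these changes was not tested. All 37 tissue values kept an adjusted p of at most 0.05 under the alternatives run for them, but Sult2b1 in liver against brain fell under the fold threshold on pools A and B (-0.64), with the block (-0.69), with medians subtracted (-0.68) and without Brain Control pool C (-0.67) or Liver Control pool C (-0.69), and Gstm7 in kidney against brain without Brain Control pool B (-0.69). The number of arrays limits the precision.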
